A study of Homo sapiens with 4 samples.

Results

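The genes described here are 9 markers of thyroid follicular cells, chosen by name: PAX8, NKX2-1, FOXE1 and HHEX, which encode transcription factors of the thyroid lineage, and TG, TSHR, SLC5A5, DIO2 and DUOX1, which serve thyroid hormone synthesis and its control. Of these 9 genes, 3 (PAX8, FOXE1 and HHEX) were among the 13165 genes of the deposited expression table. RNA was sequenced from TPC1, an established human papillary thyroid cancer (PTC) cell line, in 2 groups of 2 libraries each. The control cells carried the empty vector (TPC1-Vector), and the other cells overexpressed INAVA, an innate immunity activator that the labels call by its older symbol C1orf106 (TPC1-C1orf106, here TPC1-INAVA). The INAVA construct was carried by the retroviral vector pQCXIP. Stable cells of both groups were obtained in puromycin at 0.5 μg/mL over 2 weeks, so each group came from its own selected cells. Whether the 2 libraries of a group came from separate cultures is not stated. For every gene and group the table gives 1 value in FPKM, a fragment count scaled by transcript length and by library size, so the spread between libraries, the depth and the counting error are unknown, and none of the differences given here has a replicate check. The targeted gene, C1orf106 (chromosome 1, 200891499 to 200915736, hg38), was at 7.96 FPKM in the vector control and 123 FPKM in TPC1-INAVA, the direction that the labels give.

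Thyroid follicular cells are specified by the joint expression of PAX8, NKX2-1, FOXE1 and HHEX, each of which is also used elsewhere in the body but which occur together in the thyroid. PAX8 and NKX2-1 bind the control regions of the genes for thyroglobulin (TG) and the sodium iodide symporter (SLC5A5). Thyrotropin acts on its receptor, TSHR, which couples through the stimulatory G protein to cyclic AMP and raises iodide uptake and hormone output. Iodide is taken up by SLC5A5, oxidized with hydrogen peroxide from DUOX1 and DUOX2, and bound to TG, from which the hormone is later released by proteolysis. DIO2 is a deiodinase that turns thyroxine into the more active triiodothyronine. Thyroid cancers and, more so, cultured thyroid cancer cell lines are known for losing many of these functions.

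The stretches of 250 bases before the RefSeq transcription start of the 3 listed members are shown because they differ in how many CpG dinucleotides they hold, a feature on which listed and other genes also differed. They are written 5′ to 3′ on the strand of the gene, on GRCh38.p14, with each CpG in capitals. PAX8 lies on the reverse strand of chromosome 2 (chr2:113278922-113279171), FOXE1 on the forward strand of chromosome 9 (chr9:97852976-97853225) and HHEX on the forward strand of chromosome 10 (chr10:92689705-92689954). The last sequence is from DIO2 on the reverse strand of chromosome 14 (chr14:80212179-80212428), before its more distal RefSeq start. It is shown for the cyclic AMP response element TGACGTCA, in capitals there, the DNA element through which cyclic AMP acts on transcription.
PAX8: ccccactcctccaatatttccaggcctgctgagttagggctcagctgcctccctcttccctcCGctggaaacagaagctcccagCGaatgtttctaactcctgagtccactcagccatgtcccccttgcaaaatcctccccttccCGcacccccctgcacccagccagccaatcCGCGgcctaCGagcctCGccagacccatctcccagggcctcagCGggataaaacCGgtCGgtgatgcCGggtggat
FOXE1: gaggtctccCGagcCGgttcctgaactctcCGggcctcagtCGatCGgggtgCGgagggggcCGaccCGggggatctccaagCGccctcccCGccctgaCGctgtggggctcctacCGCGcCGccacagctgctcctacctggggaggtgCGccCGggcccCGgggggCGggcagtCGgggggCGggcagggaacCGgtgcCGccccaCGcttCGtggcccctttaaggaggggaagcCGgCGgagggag
HHEX: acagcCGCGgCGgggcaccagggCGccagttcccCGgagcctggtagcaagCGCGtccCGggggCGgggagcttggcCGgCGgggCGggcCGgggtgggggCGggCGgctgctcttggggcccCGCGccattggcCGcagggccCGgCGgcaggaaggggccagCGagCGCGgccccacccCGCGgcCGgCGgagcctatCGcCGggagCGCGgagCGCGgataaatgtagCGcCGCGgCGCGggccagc
DIO2: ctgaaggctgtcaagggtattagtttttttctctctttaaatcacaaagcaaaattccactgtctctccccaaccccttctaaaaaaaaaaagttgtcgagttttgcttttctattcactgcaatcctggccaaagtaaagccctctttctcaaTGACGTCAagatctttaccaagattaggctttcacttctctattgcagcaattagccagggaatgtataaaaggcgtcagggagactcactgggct

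The window held 11 CpG in PAX8, 26 in FOXE1 and 38 in HHEX. Over all 22199 RefSeq windows of protein-coding genes the median was 16, with a median of 20 for genes of the table and 6 for the others. HHEX thus stood near the top, with fewer CpG in 95.9% of all windows, whereas PAX8 had fewer than the median. Among members without a value the windows ranged from 1 CpG for the proximal start of DIO2 to 30 for DUOX1, with 7 for TSHR, 8 for SLC5A5 and 18 and 7 for the 2 starts of NKX2-1. The numbers of the 3 listed members and of the others therefore overlapped. No RefSeq window was available for TG, so TG is not part of these numbers and was not searched for the sites below. The palindrome TGACGTCA occurred in 2.01% of all windows and, among the members, in the distal window of DIO2 alone, beginning 96 bases before the start. CAAGTG, searched on both strands as an NKX2-1 type site, occurred in 8.52% of windows and, among the members searched, in the second window of NKX2-1 itself. The forkhead core TGTTTAC, on either strand, occurred in 2.45% of windows and also in that window of NKX2-1. A match is a description of the letters and was not tested for binding.

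The members were divided by role in whether the table listed them. Of the 4 transcription factors 3 were listed, and of the 5 genes of hormone synthesis and its control (TG, TSHR, SLC5A5, DIO2 and DUOX1) 0 were. Among all 20056 RefSeq protein-coding genes, 59.7% were listed. No level can be given for NKX2-1, TG, TSHR, SLC5A5, DIO2 and DUOX1, whose expression is not analysed here. The table holds 0 genes with a value of 0 in both groups, and the lowest value that any gene had in its higher group was 0.278 FPKM. How genes were chosen for the table is not given in the sources used here. The listed genes TTF1 and TTF2 carry names that are also in use for NKX2-1 and FOXE1, but their positions on chromosomes 9 and 1 and their descriptions are those of transcription termination factors, so they were not counted.

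The share listed also varied among lists of the pathway, some of which hold members, and the differences in share were not tested. In the list of iodide handling and hormone synthesis, 2 of 15 genes were listed, or 2 of 12 without the members TG, SLC5A5 and DUOX1. The genes without a row included DUOX2, the maturation factors DUOXA1 and DUOXA2, the anion exchanger SLC26A4 (pendrin) and the iodotyrosine deiodinase IYD. CYBA, a small membrane subunit shared by several NADPH oxidases in many cell types, was at 143 FPKM in the vector control against 182 FPKM in TPC1-INAVA. SLC26A7, an anion exchanger active in thyroid, was at 0.271 and 0.416 FPKM, close to the lowest values of the table. It shares its position with LRRC69, so how reads were assigned is uncertain. Of the 16 genes commonly combined into a thyroid differentiation score, 5 were listed (PAX8, FOXE1, GLIS3, THRA and THRB), all of them transcription factors or nuclear receptors, but 8 of the 16 are members, and without these 3 of 8 were listed. By contrast 20 of 25 genes of TSH receptor and cyclic AMP signalling, 14 of 17 genes for the folding, uptake and proteolysis of thyroglobulin, and 20 of 29 genes of hormone transport, deiodination and receptors were listed. Most genes of these last lists are used in nearly every cell.

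**Figure D1:**
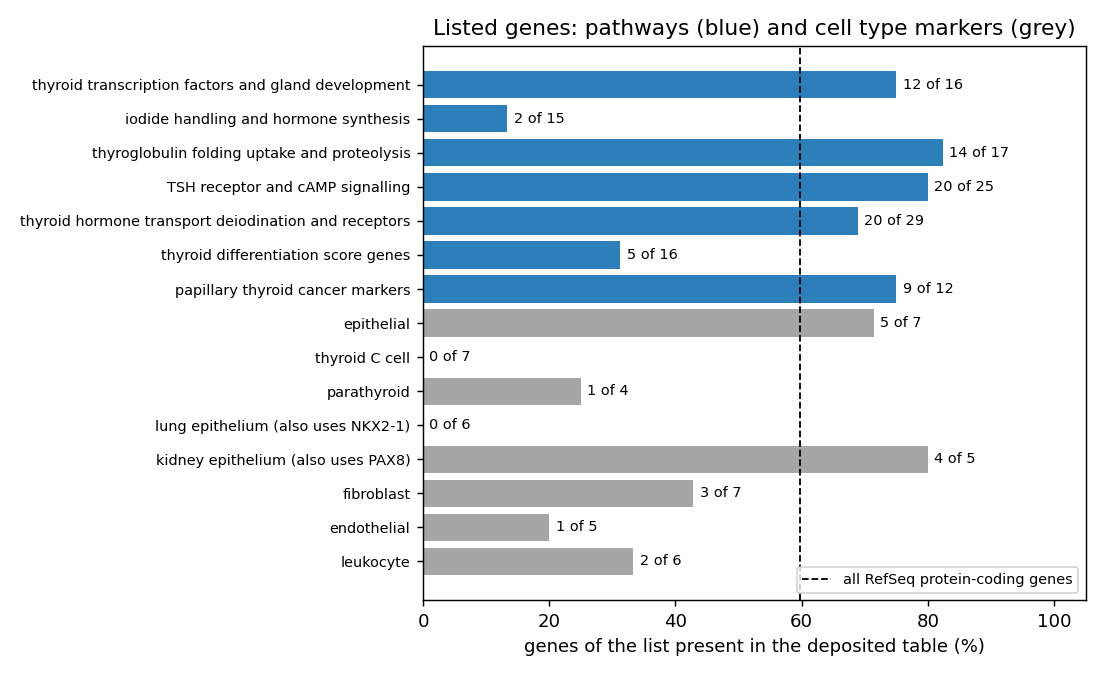
Share of each gene list that the deposited table lists, in percent, with pathway lists in blue, cell type marker lists in grey, the number listed of the number in the list beside each bar, and a dashed line at 59.7% for all RefSeq protein-coding genes. Iodide handling and hormone synthesis, at 2 of 15 genes, is the shortest blue bar, while the transcription factor list is at 12 of 16.

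PAX8 (chromosome 2, 113215997 to 113278921, hg38), the paired box factor that thyroid follicular cells need to form and to express their hormone genes, was at 60.1 FPKM in the vector control against 55.7 FPKM in TPC1-INAVA. It had a higher level than 89.5% of all listed genes in TPC1-Vector and 88.2% in TPC1-INAVA. The difference of log2(FPKM + 0.5), TPC1-INAVA minus TPC1-Vector, was -0.11. In RNA from many cells, fewer expressing cells and less RNA per cell cannot be told apart. The antisense gene PAX8-AS1 is given the same position, with 12.9 and 11.7 FPKM, and PAX8 was 4.65 and 4.77 times its level. Since it is not stated whether the counting used strand, reads of PAX8 and PAX8-AS1 may not be told apart where they overlap.

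HHEX (chromosome 10, 92689924 to 92695651), a homeobox repressor needed for the thyroid bud to persist and also used in liver and blood progenitors, was at 8.33 FPKM in the vector control against 10.0 FPKM in TPC1-INAVA. It stood near the middle of the table, above 45.2% and 50.1% of the listed genes. Its difference on the log2 scale was 0.25, the largest of the 3 members.

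FOXE1 (chromosome 9, 97853255 to 97856715), a forkhead factor needed for migration of the thyroid bud, was at 5.26 FPKM in the vector control against 5.89 FPKM in TPC1-INAVA, above 35.9% and 37.9% of the listed genes. Its log2 difference was 0.15. The order of the levels was PAX8, HHEX, FOXE1 in both groups. PAX8 was 7.21 times HHEX and 11.4 times FOXE1 in TPC1-Vector, and 5.55 and 9.45 times in TPC1-INAVA. HHEX was 1.58 and 1.70 times FOXE1. With no spread over libraries, it cannot be said which neighbours in this order differ beyond their error.

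A difference was called where it reached 1.5-fold in either direction on the log2(FPKM + 0.5) scale, a scale that understates the change of weakly expressed genes, among genes whose 2 group values averaged 0.5 FPKM or more. Of the 3 listed members, 0 were called, against 3.7% of the 12305 genes kept (2.24% higher and 1.45% lower in TPC1-INAVA). The median log2 difference of the genes kept was 0.0033. Levels of PAX8, HHEX and FOXE1 thus differed by less than 1.5-fold between TPC1-Vector and TPC1-INAVA, while C1orf106 differed by 3.86 on the log2 scale.

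**Figure D2:**
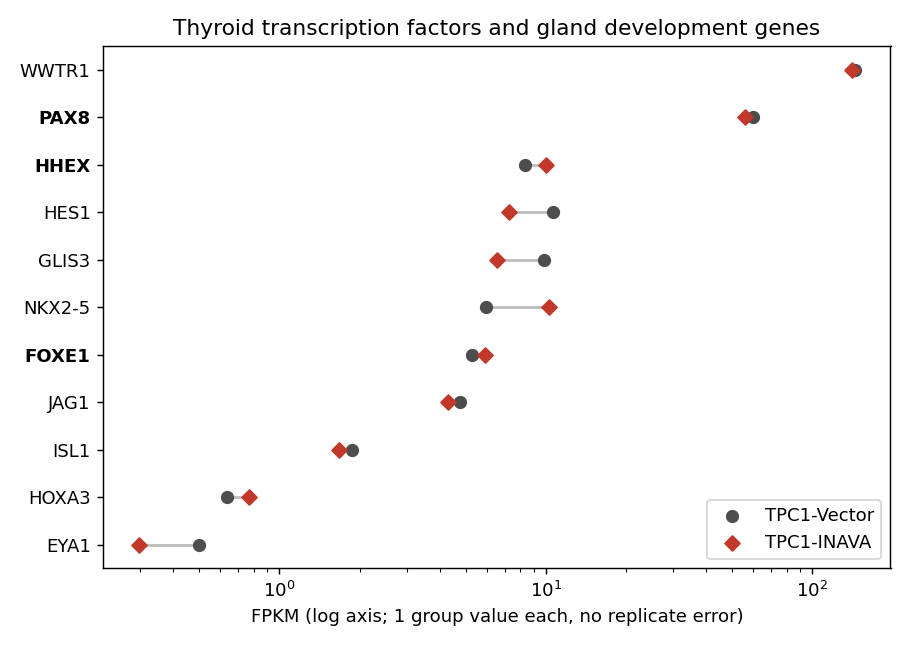
FPKM on a log axis of 11 listed genes from the list of thyroid transcription factors and gland development, with grey circles for TPC1-Vector and red diamonds for TPC1-INAVA, each the authors' group value without replicate error. The members PAX8, HHEX and FOXE1 are in bold, and PAX8, at 60.1 and 55.7 FPKM, lies second to WWTR1, with little distance between its symbols.

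In the list of thyroid transcription factors and gland development, 11 genes passed the filter, of which 1 was called higher, 0 were called lower and the median log2 difference was -0.065. WWTR1 (TAZ), a coactivator that binds PAX8 and NKX2-1 and is expressed in many cell types, had the highest level, 144 and 140 FPKM. The called gene was NKX2-5, a homeobox factor known from the heart and also present in the early thyroid bud, at 5.97 FPKM in the vector control against 10.2 FPKM in TPC1-INAVA, a log2 difference of 0.73. GLIS3, a zinc finger factor whose loss causes hypothyroidism, went the other way, from 9.81 to 6.53 FPKM, a log2 difference of -0.55 that was not called. HES1, a target of Notch signalling, was at 10.7 and 7.25 FPKM, with a log2 difference of -0.53. JAG1, the gene of a Notch ligand, was at 4.76 and 4.30 FPKM. ISL1, a homeobox factor of the pharynx, was weak in both groups, with 1.88 and 1.67 FPKM. HOXA3 was at 0.638 and 0.770 FPKM, and EYA1, at 0.497 and 0.297 FPKM, fell under the filter. HOXB3, NKX2-3 and TBX1 were not listed.

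Members were also compared with their own families, a comparison chosen after the values were seen. Of 9 PAX genes 5 were listed, and PAX8 had the highest mean level, 9.91 times that of PAX6, the second. PAX2 was at 5.15 and 3.49 FPKM, PAX5 at 1.11 and 0.570 FPKM, and PAX9 at 0.779 and 1.32 FPKM. Of 45 FOX genes 22 were listed, with the cell cycle factor FOXM1 first at 69.3 and 59.3 FPKM, and FOXE1 had rank 10 by mean level. Of 14 NKX genes 4 were listed, among them NKX2-5, with NKX6-1 and NKX3-2 at lower levels. PAX8 thus had the highest level among listed PAX genes in both groups, whereas FOXE1 lay in the middle of the listed FOX genes, whose median was 4.21 FPKM.

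The chromosomal neighbours of the members were examined because a shift shared by many genes of a region would be carried by a member too. Within 5 Mb on each side of HHEX, 55 of 58 other genes were lower in TPC1-INAVA, with a median log2 difference of -0.35, and within 1 Mb all 11 were lower, with values from -0.68 to -0.17. HHEX, at 0.25, lay 0.61 above the median of the wider window, and 1 of the 58 genes lay above it. Over the whole of chromosome 10 the median of 485 genes was -0.25. HHEX thus went against the direction of the genes around it. The neighbours of PAX8 had a median of 0.019 over 33 genes and those of FOXE1 a median of -0.054 over 54 genes, and both members lay within the range of the genes around them. PAX8 was at -0.11, with values from -0.35 to 0.40 around it, and FOXE1 at 0.15, with values from -0.91 to 0.85.

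**Figure D3:**
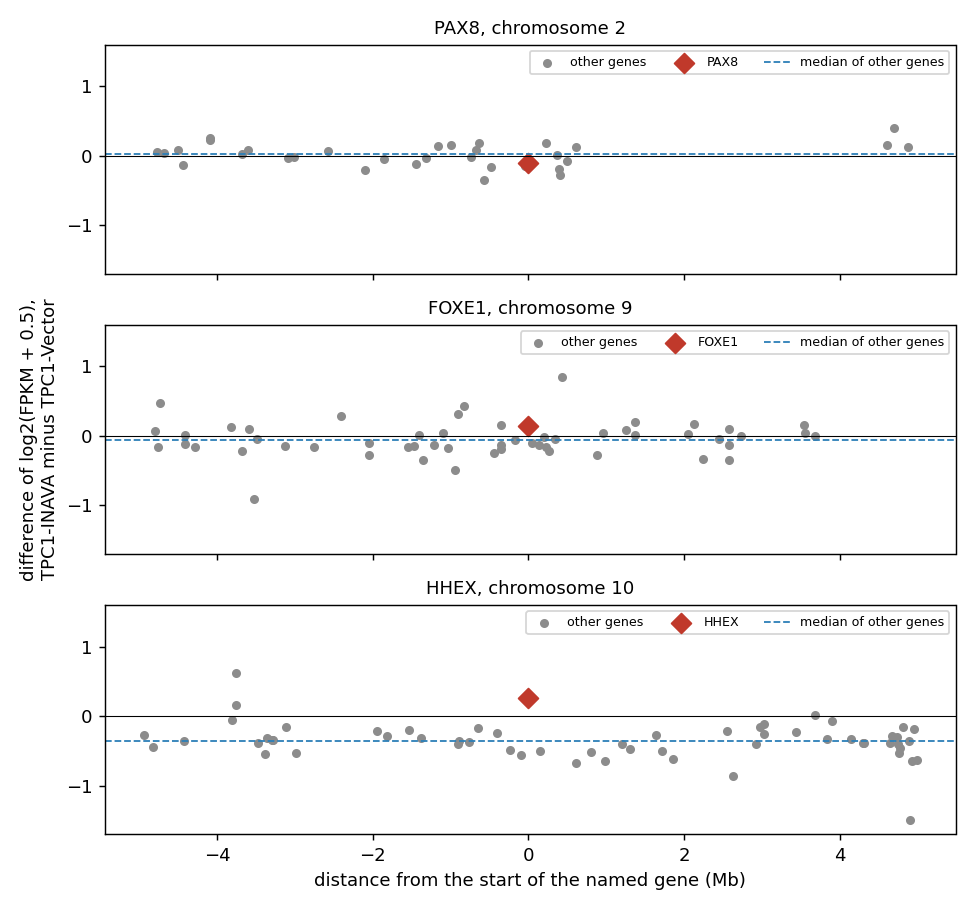
Difference of log2(FPKM + 0.5), TPC1-INAVA minus TPC1-Vector, of genes within 5 Mb of PAX8, FOXE1 and HHEX against the distance of their start from that of the named gene in Mb, with other genes in grey, the named gene as a red diamond and the median of the other genes as a dashed line. HHEX lies at 0.25 above a band of genes with a median of -0.35, while PAX8 and FOXE1 lie among their neighbours.

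Downstream of TSHR, for which no level can be given, the general machinery of cyclic AMP signalling was listed. All 20 listed genes of that list passed the filter, 0 were called in either direction, and the median log2 difference was -0.10. GNAS, the gene of the stimulatory G protein, was at 365 FPKM in the vector control against 523 FPKM in TPC1-INAVA, a log2 difference of 0.52. It lies on chromosome 20 among genes that were mostly higher as well, with a median of 0.35 over 58 genes within 5 Mb, of which 53 were higher, and it shares its position with GNAS-AS1. PRKAR1A, the main regulatory subunit of protein kinase A, was at 94.7 and 106.2 FPKM, and like WWTR1 and FOXM1 it shares its position with another gene. The catalytic subunit gene PRKACB was at 21.5 and 18.0 FPKM, a log2 difference of -0.25. RAPGEF3 (EPAC1), an exchange factor that cyclic AMP activates directly, was at 8.86 and 5.84 FPKM, a log2 difference of -0.56. With 0.1 FPKM added in place of 0.5 it became a call at -0.59, and 1 gene of the list was then also called higher, the phosphodiesterase gene PDE4D at 0.444 and 0.732 FPKM.

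For the folding, uptake and proteolysis of thyroglobulin, 14 genes passed the filter, 1 was called higher and 0 lower, with a median log2 difference of 0.066. CTSB, a lysosomal cysteine protease that takes part in releasing hormone from thyroglobulin and also acts in most other cells, was at 128 FPKM in the vector control against 290 FPKM in TPC1-INAVA. Its log2 difference was 1.17, while 0 of 19 genes within 5 Mb reached that value. The aspartic protease gene CTSD went the other way, with 230 and 183 FPKM, so that CTSB was 0.557 times CTSD in TPC1-Vector and 1.59 times CTSD in TPC1-INAVA. The chaperone genes HSPA5, at 460 and 362 FPKM, and CALR, at 535 and 560 FPKM, and the transglutaminase TGM2, at 412 and 473 FPKM, had high levels in both groups. LRP2 (megalin), an uptake receptor for thyroglobulin, and the cathepsins CTSH and CTSS were not listed.

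Among genes of hormone transport, deiodination and receptors, 19 passed the filter, 1 was called higher and 0 lower, with a median log2 difference of -0.051. SLC7A5, at 484 and 467 FPKM, and its partner SLC3A2, at 329 and 309 FPKM, form an amino acid transporter that also carries thyroid hormone and were the highest of the list. Both receptor genes had lower values in TPC1-INAVA without being called. THRA was at 3.64 and 2.42 FPKM, a log2 difference of -0.50, and shares its position with NR1D1, and THRB was at 6.39 and 5.32 FPKM, a log2 difference of -0.24. SECISBP2, which is needed to make selenoproteins such as the deiodinases, was at 9.37 and 7.77 FPKM. The deiodinase genes DIO1, DIO2 and DIO3 were not listed. Over the 5 listed genes of the differentiation score, of which 0 were called, the median log2 difference was -0.24, with PAX8, GLIS3, THRA and THRB lower and FOXE1 higher. On the deposited values, GLIS3 was 1.502-fold and THRA 1.504-fold lower in TPC1-INAVA. Both missed the call through the added 0.5 FPKM.

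**Figure D4:**
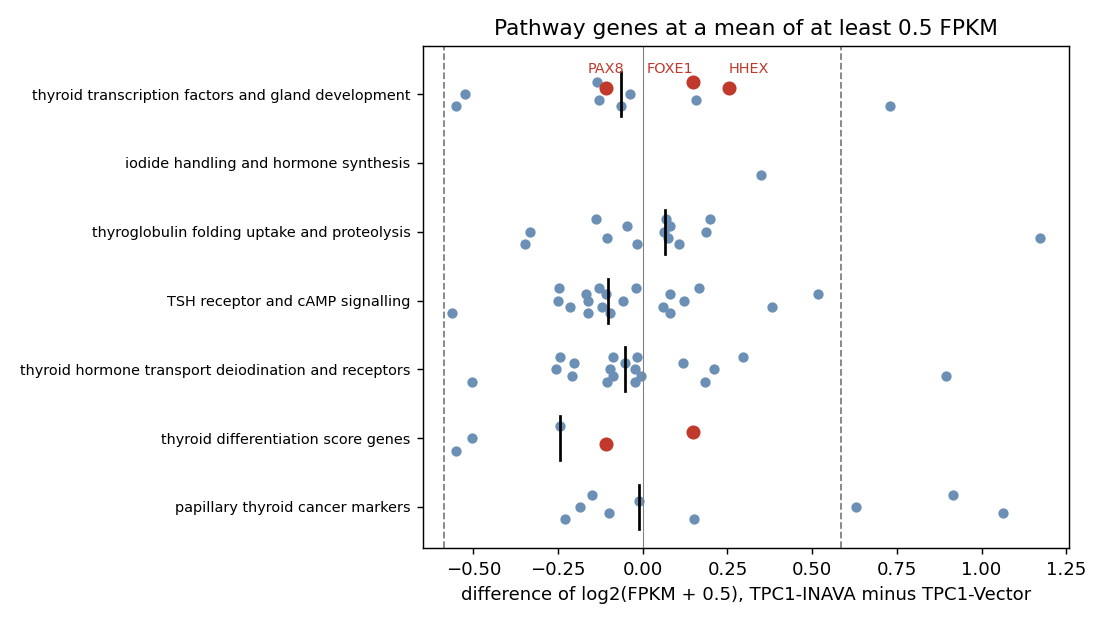
Difference of log2(FPKM + 0.5), TPC1-INAVA minus TPC1-Vector, of each gene that averaged 0.5 FPKM or more in the 7 pathway lists, with black lines for list medians, dashed lines at 1.5-fold, and the members PAX8, FOXE1 and HHEX in red. The members lie between -0.11 and 0.25, inside the dashed lines, and the genes outside them, which include NKX2-5, CTSB, SERPINA1, FN1 and TIMP1, are all higher.

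The label of the cells was compared with markers of PTC, of epithelium and of other cell types. Of 12 genes known to be high in PTC, 9 were listed, of which 4 had higher and 5 lower values in TPC1-INAVA, with a median log2 difference of -0.0099. Of these, 3 were called higher and 0 lower. SERPINA1 was at 9.76 and 20.9 FPKM, the matrix protein gene FN1 at 144 and 272 FPKM, and TIMP1, an inhibitor of metalloproteinases, at 74.7 and 116 FPKM. SERPINA1 was placed on an alternate sequence of chromosome 14 and TIMP1 shares its position with ARAF, so how reads were assigned is uncertain for both. With a threshold of 2-fold, 1 gene of the list was called higher. The 5 with lower values were DPP4, HMGA2, MET, PROS1 and TGFA, with log2 differences from -0.23 for PROS1 to -0.0099 for HMGA2. KRT19 and CITED1, both used as PTC markers, were not listed. Of the 7 epithelial genes 5 were listed, without CDH1 and EPCAM. KRT8 was called lower, with 23.4 and 10.5 FPKM, and KRT18 higher, with 140 and 212 FPKM, but the table gives both the same position, so how reads were assigned between them is uncertain. The difference of KRT18, 0.59, lay just past the threshold, and the call was lost under quantile normalization. CLDN1, a tight junction gene, was called lower, with 84.2 and 48.5 FPKM.

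PAX8 is also a factor of the kidney, and 4 of 5 kidney epithelium genes were listed. PAX2 was at 5.15 and 3.49 FPKM, LHX1 at 3.20 and 1.96 FPKM, and CDH16, a cadherin of kidney that is also made in thyroid, at 1.47 and 0.910 FPKM. All 4 had lower values in TPC1-INAVA, with a median log2 difference of -0.49, and 1, LHX1 at -0.59, was called. PAX2 lies on chromosome 10, where 84 of 88 genes within 5 Mb were lower too, and LHX1 was placed on an alternate sequence of chromosome 17, so how reads were assigned between it and the main sequence is uncertain. PAX8 was 11.7 times PAX2 in TPC1-Vector and 15.9 times in TPC1-INAVA.

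Of the lung genes, which like thyroid use NKX2-1, 0 of 6 were listed, and of the calcitonin-producing C cell genes 0 of 7. Parathyroid had 1 of 4, which was GATA3, a factor of many tissues, and endothelium 1 of 5. Leukocyte markers had 2 of 6, with CD68 at 5.76 and 8.67 FPKM and without the defining gene PTPRC, and fibroblasts 3 of 7, without COL1A2, COL3A1 and DCN. The summed level of the leukocyte markers was 6.06 FPKM in the vector control against 8.91 FPKM in TPC1-INAVA, and that of the fibroblast markers 3.56 and 2.19 FPKM. The leukocyte sum was nearly all CD68, and CD14, the other listed leukocyte marker, was lower in TPC1-INAVA, at 0.295 and 0.236 FPKM. Whether other cells had a part in the differences was not tested.

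The members without a level were located with GENCODE release 29 on GRCh38. NKX2-1 lies on chromosome 14 (36516392 to 36521149), as do TSHR (80954989 to 81146302) and DIO2 (80197527 to 80387757). SLC5A5 lies on chromosome 19 (17871973 to 17895174), DUOX1 on chromosome 15 (45129933 to 45165576) and TG on chromosome 8 (132866958 to 133134903). No listed gene was recorded at these places under an older symbol of a member.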

How the data were processed

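RNA was measured in 4 libraries of TPC1 cells, 2 per group. The authors deposited 1 table with an FPKM value per gene and group. Their processing notes name CASAVA, Cufflinks 2.1.1, Cuffdiff and the build hg38. The study's methods and the labels name different library kits. The aligner, the annotation and the use of strand are not given in the sources used here. The authors' own log2 ratios, p-values and q-values between the groups are in the table and were not used.

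Levels were taken as deposited. Differences were computed as log2(FPKM + 0.5), TPC1-INAVA minus TPC1-Vector, among genes that averaged 0.5 FPKM or more (12305 of 13165), and called at 1.5-fold. With 1 value per group no test was possible. Depth is unknown, so no interval is given. Deposited starts are counted from 0 (5241 starts matched a GENCODE 29 transcript start after adding 1, and 413 without), and 1 was added. Promoter windows are from RefSeq on GRCh38.p14. Gene symbols were matched directly or, at the same position, by older symbols.

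The members and lists were chosen with earlier results of these data known. Named were the members, C1orf106, the listed genes of the transcription factor, hormone synthesis and differentiation score lists, and in the other pathway lists the 3 largest differences and the 2 highest levels at a mean of at least 1 FPKM. Some genes that this rule takes are not reported here. Marker and family genes were named after their values were seen. The calculations were checked on simulated data. Pseudocounts of 0.1 and 1, no filter, a filter at 1 FPKM, median-of-ratios scaling, quantile normalization, a 2-fold threshold and other windows were tried. Python 3.11.15, numpy 2.4.6, pandas 2.3.3 and matplotlib 3.10.9 were used.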

Additional observations from a re-analysis of the deposited data

How the results depend on the processing

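No paired analysis was possible because both libraries of a group are combined in 1 value, and for the same reason leaving out single libraries was not run. The 3 members were called under none of the alternatives tried, and each kept its direction, with ranges of -0.14 to -0.11 for PAX8, 0.14 to 0.16 for FOXE1 and 0.24 to 0.27 for HHEX. Over all genes, 276 were called higher and 179 lower. With a threshold of 2-fold these numbers were 75 and 30, and with a pseudocount of 0.1 FPKM 289 were lower, which follows from the threshold and the pseudocount themselves. Quantile normalization turned CALR from 0.068 to -0.021 and the median of the list of thyroglobulin folding, uptake and proteolysis from 0.066 to -0.0072, and the cause was not tested. The median around PAX8 was -0.078 within 1 Mb and -0.0073 over the whole chromosome, and that around FOXE1 was 0.0016 over the whole chromosome, against 0.019 and -0.054 within 5 Mb, all near 0. With a pseudocount of 0.1 FPKM, EYA1 was at -0.59 and RAPGEF3 at -0.59, both past the threshold, and the list of TSH receptor and cAMP signalling then had 1 gene called higher (PDE4D) and 1 lower, against 0 and 0. Under quantile normalization KRT18 was no longer called. NKX2-5 was not called at 2-fold, and LHX1 was not called with a pseudocount of 1 FPKM. With a pseudocount of 0.1 FPKM, 2 kidney epithelium genes were called lower, LHX1 and CDH16, against 1. The unknown depth limits what can be said of weak genes such as SLC26A7.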
